A study of Mus musculus with 4 samples.

Results

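Pax7 binding sites at 32 cadherin and protocadherin genes were examined in iPax7 mouse muscle progenitors. The genes are all autosomal protein-coding genes in the GENCODE annotation of the NCBIM37 (mm9) genome whose symbol is Cdh or Pcdh followed by a number only, out of 21418 autosomal protein-coding gene records. The clustered Pcdha, Pcdhb and Pcdhg genes are not among them, nor is 1 gene with such a symbol that the rule leaves aside. Their Pax7 sites are the 35 peaks whose summit, the base of highest signal, lay within 50 kb of a transcription start site (TSS), out of 20336 autosomal peaks and 20579 peaks in all. No peak was counted for more than 1 of these genes.

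iPax7 cells are mouse embryonic stem cells that carry a Pax7 transgene switched on by doxycycline (Dox). Embryoid bodies received 1 µg/ml Dox from day 3, PDGFRα+FLK1- cells were sorted on day 5, and the sorted cells were expanded in Dox with 10 ng/ml basic FGF until day 9, which makes 6 days of Dox. All 4 libraries, 2 of Pax7 ChIP and 2 of input DNA, came from Dox-treated cells of this kind, so Pax7 was supplied by the transgene throughout and no culture without Dox was compared. The replicates were merged before peaks were called, so the 1 peak list holds no replicate values, no error of a peak height and no read depth. The list holds no expression values, so the identity of the cells could not be checked against marker genes. All values below are descriptions of this list. The intervals are 95% Wilson or Poisson intervals that cover counting error only, and neither genes nor peaks are replicates of a condition.

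Cadherins are calcium-dependent adhesion proteins that bind their like on a neighbouring cell. Classical cadherins (types I and II) anchor to actin through catenins, while the protocadherins have related outer domains and other inner tails. In muscle, cadherins hold stem cells to the fibre and act when myoblasts align and fuse, and Pax7 is the paired-box and homeodomain factor that marks these stem cells. Its paired domain reads the core GTCACG and its homeodomain reads TAAT half-sites.

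The DNA under the strongest summits and under the summits next to a TSS is shown first, because these peaks carry most of what follows. Each line gives the summit with 50 bases on either side, from the plus strand of NCBIM37, 5′ to 3′, with the paired-box core GTCACG, or CGTGAC where it lies on the other strand, in capitals. The first 5 lines are the strongest peaks of the 5 genes with the highest fold enrichment within 50 kb of the TSS. The remaining 4 lie within 2 kb of a TSS. Peaks in untranslated exon sequence are left out.
Cdh26 intron, chr2:178189495-178189595: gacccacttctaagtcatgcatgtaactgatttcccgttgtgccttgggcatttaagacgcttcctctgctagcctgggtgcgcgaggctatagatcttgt
Cdh16 upstream, chr8:107165889-107165989: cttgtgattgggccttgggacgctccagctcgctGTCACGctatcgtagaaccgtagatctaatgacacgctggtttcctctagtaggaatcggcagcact
Cdh1 intron, chr8:109147056-109147156: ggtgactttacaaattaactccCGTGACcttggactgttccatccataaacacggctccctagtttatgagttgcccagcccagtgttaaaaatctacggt
Cdh6 upstream, chr15:13104438-13104538: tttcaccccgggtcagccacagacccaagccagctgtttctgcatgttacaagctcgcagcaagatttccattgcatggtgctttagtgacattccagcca
Cdh4 intron, chr2:179179555-179179655: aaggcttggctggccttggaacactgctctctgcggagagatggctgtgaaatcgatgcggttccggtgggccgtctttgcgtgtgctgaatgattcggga
Pcdh7 upstream, chr5:58108116-58108216: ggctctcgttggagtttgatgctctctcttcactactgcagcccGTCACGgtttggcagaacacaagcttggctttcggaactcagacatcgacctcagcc
Pcdh9 upstream, nearer summit, chr14:94289202-94289302: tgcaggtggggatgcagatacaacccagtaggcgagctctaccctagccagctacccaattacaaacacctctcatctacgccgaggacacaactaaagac
Pcdh9 upstream, farther summit, chr14:94289835-94289935: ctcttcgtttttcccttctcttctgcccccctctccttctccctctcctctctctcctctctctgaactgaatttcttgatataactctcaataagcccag
Pcdh10 coding exon, chr3:45184223-45184323: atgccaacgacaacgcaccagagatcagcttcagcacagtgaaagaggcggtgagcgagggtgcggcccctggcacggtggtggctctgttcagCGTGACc
The core was found in the lines of Cdh16, Cdh1, Pcdh7 and Pcdh10, and neither it nor a homeodomain dimer was found in those of Cdh26, Cdh6, Cdh4 and Pcdh9.

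Pax7 peaks were found near some of the cadherin genes and were missing from the rest. Of the 32 genes, 16 had at least 1 summit within 50 kb of the TSS, which is 50.0% (interval 33.6 to 66.4%), against 56.8% of all autosomal protein-coding genes. The 16 genes were the classical cadherins Cdh1, Cdh2 and Cdh4, the type II cadherins Cdh5, Cdh6, Cdh11, Cdh22 and Cdh24, the further cadherins Cdh16 and Cdh26, and the protocadherins Pcdh7, Pcdh8, Pcdh9, Pcdh10, Pcdh15 and Pcdh17. The share for the cadherin genes was near the background, since its interval covered the value of all genes.

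The other counts gave the same picture. A summit of at least 5-fold enrichment (the ChIP signal over the local background, as MACS2 computed it) lay within 50 kb of 12 genes, or 37.5%, against 38.9% of all genes. At least 3 summits lay near 3 genes, or 9.38%, against 15.2% of all genes. The mean was 1.09 ± 1.49 peaks per gene (SD over 32 genes) against 1.14 ± 1.39 over all 21418, and the median was 0.5 against 1. By number of peaks, 16 of the genes had none, 5 had 1, 8 had 2 and 3 had 3 or more. Genes with exactly 2 peaks made up 25.0% of the family against 15.5% of all genes, and those with exactly 1 made up 15.6% against 26.1%.

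**Figure D1:**
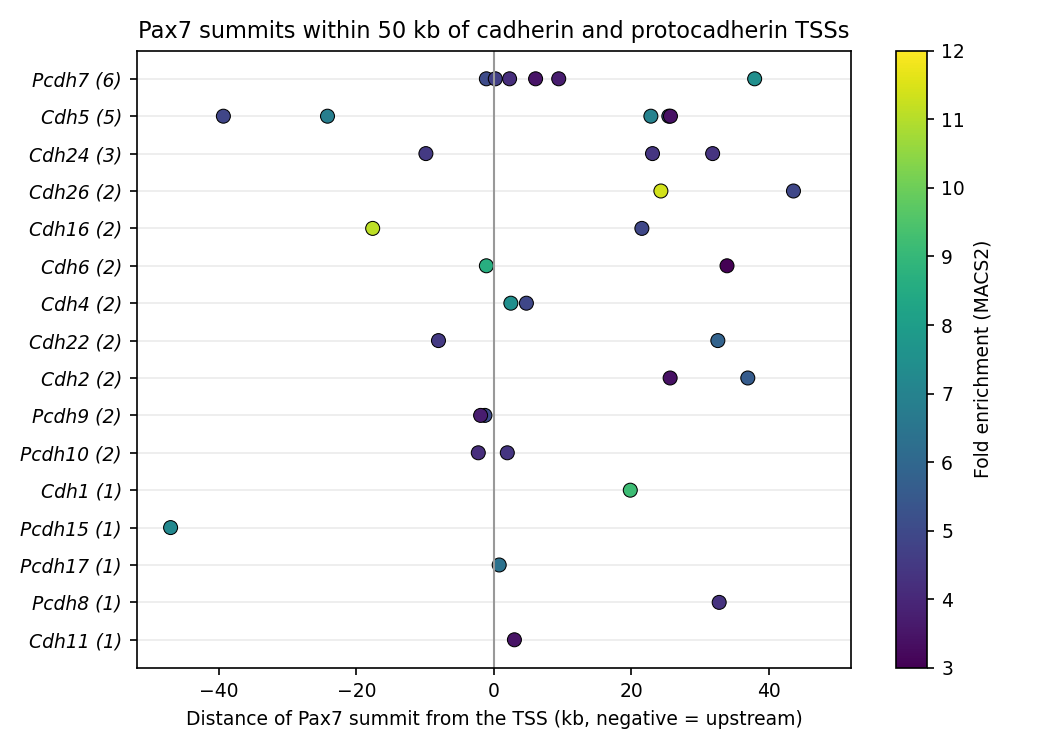
Each point is 1 of the 35 Pax7 summits, placed by its distance in kb from the TSS of the gene named on the left (negative is upstream) and coloured by MACS2 fold enrichment; the number of summits follows each gene. The summits of Pcdh9 and Pcdh10 and most of those of Pcdh7 crowd near the TSS, with 1 of Pcdh7 at 37.96 kb. Those of Cdh5 lie more than 20 kb from it, and the 2 brightest points belong to Cdh26 and Cdh16.

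Pcdh7, a delta-1 protocadherin known from brain and heart, had the most peaks. It lies at chr5:58109260-58520590 on the plus strand and had 6 summits within 50 kb, more than 98.9% of all genes. Around its start, a summit of 5.06-fold lay 1.09 kb upstream (peak chr5:58108068-58108297, in an intron of the lincRNA 4932441J04Rik). A summit of 4.71-fold lay 204 bp downstream in the untranslated part of an exon (chr5:58109276-58109594), and one of 4.19-fold lay 2.28 kb downstream in coding exon sequence (chr5:58111435-58111663). These 3 summits lay on both sides of the start of the gene, and each of the 3 held a paired-box core within 50 bp. None of them was the strongest at the gene.

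The remaining summits of Pcdh7 within 50 kb were intronic. They measured 3.49-fold at 6.07 kb (chr5:58115200-58115543), 3.72-fold at 9.44 kb (chr5:58118448-58118761) and 7.43-fold at 37.96 kb (chr5:58146959-58147352). The last of these was the strongest within the window and exceeded 81.0% of all 20579 peaks. None of the 3 held a Pax motif, so at Pcdh7 the motif was found at the 3 summits nearest to the TSS.

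Cdh5, which encodes the endothelial cadherin VE-cadherin, had 5 peaks and none of them was near its TSS. The gene lies at chr8:106625525-106668402 on the plus strand. The strongest summit, 6.98-fold, was intronic at 22.9 kb (chr8:106648072-106648563). It was followed in the same intronic stretch by summits of 5.76-fold at 25.5 kb (chr8:106650866-106651139) and 3.40-fold at 25.7 kb (chr8:106651194-106651370). Upstream of the gene, intergenic summits measured 6.80-fold at 24.2 kb (chr8:106601181-106601469) and 4.88-fold at 39.4 kb (chr8:106586026-106586267). For all 5 summits Cdh5 was the nearest protein-coding TSS. A GGAATG site, the sequence read by Tead factors, was found at 4 of the 5, and none held a Pax motif.

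Cdh24, a further type II cadherin, had 3 weak peaks in a gene-rich stretch with 7 other coding TSSs within 50 kb. It lies at chr14:55250829-55260201 on the minus strand. Its summits measured 4.53-fold at 9.90 kb upstream (chr14:55269973-55270165, in an exon of 4930579G18Rik), 4.39-fold at 23.1 kb downstream (chr14:55237026-55237249) and 4.36-fold at 31.8 kb downstream (chr14:55228223-55228404). Only the upstream summit had Cdh24 as its nearest coding TSS. The others lay 263 bp from the TSS of Psmb5, a proteasome subunit gene, and 3.62 kb from that of 4931414P19Rik. Together the 3 genes Pcdh7, Cdh5 and Cdh24 held 14 of the 35 peaks.

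Within 50 kb of the TSS, the highest fold enrichments belonged to genes with 1 or 2 peaks there. Cdh26, a cadherin of epithelia, had an intronic summit of 11.4-fold 24.3 kb downstream of its TSS (chr2:178189378-178189931), above 95.9% of all 20579 peaks. Its second peak, at 43.6 kb, measured 4.90-fold. The Cdh16 summit of 11.1-fold (chr8:107165712-107166154), above 95.5% of all peaks, lay 17.6 kb upstream of Cdh16, the kidney cadherin, and 74 bp from the TSS of Fam96b. It thus lay at the start of a neighbouring gene, in an intron of the processed transcript 1700082M22Rik. The other Cdh16 summit, 4.90-fold at 21.5 kb downstream, lay in a Cdh16 intron, with the TSS of Pdp2 nearer at 11.4 kb.

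Among the type I cadherins, Cdh1, which encodes the epithelial E-cadherin, had 1 intronic summit of 9.18-fold at 19.9 kb (chr8:109146921-109147299), above 90.3% of all peaks. Cdh4, which encodes R-cadherin, had intronic summits of 7.46-fold at 2.47 kb (chr2:179179449-179179852) and 4.92-fold at 4.73 kb. Cdh2, which encodes N-cadherin, the cadherin of neural and muscle cells, had summits of 3.41-fold at 25.7 kb and 5.59-fold at 37.0 kb, both downstream of the TSS. Cdh3, which encodes P-cadherin, had none. So 3 of the 4 type I genes had 5 peaks between them, and the E-cadherin peak was stronger than both at Cdh2. No read counts came with these peaks, and no error of that difference could be given.

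Of the 13 type II genes 5 had peaks, 13 in all. Cdh6, a cadherin of kidney and neural tissue, had a summit of 8.63-fold 1.09 kb upstream of its TSS (chr15:13104287-13104625), above 88.0% of all peaks and the strongest within 2 kb of any TSS in the family. Its other summit, 3.02-fold at 33.9 kb, was the weakest of the 35. Cdh22 had summits of 5.84-fold at 32.6 kb downstream and 4.53-fold at 8.07 kb upstream. Cdh11, the cadherin of mesenchyme and osteoblasts, had 1 summit of 3.46-fold at 2.99 kb. Cdh7, Cdh8, Cdh9, Cdh10, Cdh12, Cdh18, Cdh19 and Cdh20 had none within 50 kb.

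The 5 cadherins outside these types split in the same way. Cdh16 and Cdh26 had 2 peaks each. Cdh13 (T-cadherin, held in the membrane by a lipid anchor), Cdh17 (the liver and intestine cadherin) and Cdh23 (part of the tip link of hair cells) had none within 50 kb.

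Counted by peak, the protocadherin summits lay closer to the TSS than the cadherin summits. Of the 13 Pcdh summits 6 were within 2 kb of the TSS, or 46.2% (interval 23.2 to 70.9%), against 1 of the 22 Cdh summits, or 4.55% (interval 0.807 to 21.8%). Within 10 kb the counts were 10 of 13 and 6 of 22. Over all coding genes, 3382 of the 24502 pairs of a summit and a gene within 50 kb were within 2 kb. Another 3401 of these pairs were from 2 to 10 kb apart. The median distance was 2.27 kb for Pcdh and 23.7 kb for Cdh summits. Pcdh7 gave 2 of the 6 near summits and Pcdh9 another 2. By gene, 4 of 10 Pcdh (interval 16.8 to 68.7%) and 1 of 22 Cdh genes (0.807 to 21.8%) had a summit within 2 kb. Within 10 kb the gene counts were 4 of 10 and 5 of 22 (interval 10.1 to 43.4% for Cdh), and the share of all genes within 10 kb is not given here. The intervals by gene overlap at both distances. In total 5 of the 32 genes, or 15.6%, had a summit within 2 kb, against 14.2% of all genes.

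The near summits of the other protocadherins ranged from 3.70-fold to 6.40-fold, and 3 of the 4 were under the median of all autosomal peaks, 5.22-fold. Pcdh17, a delta-2 protocadherin, had a summit of 6.40-fold 775 bp downstream of its TSS in untranslated exon sequence (chr14:84843996-84844314). Pcdh9, a delta-1 protocadherin, had intergenic summits of 5.06-fold at 1.30 kb (chr14:94289075-94289407) and 3.70-fold at 1.93 kb (chr14:94289779-94290003), both upstream. The 2 Pcdh9 peaks also count as 1 when peaks within 500 bp are merged, which together with the Cdh5 pair leaves 33 peaks. Pcdh10, a delta-2 protocadherin, had a summit of 4.39-fold at 1.95 kb in coding exon sequence (chr3:45184203-45184432). Its second summit, 4.19-fold, lay 2.27 kb upstream in an intron of the lincRNA 2610316D01Rik. In these genes a large exon at the start encodes the outer cadherin repeats.

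The other protocadherin peaks were far from their TSS. Pcdh15, the tip-link partner of Cdh23, had 1 intergenic summit of 7.20-fold 47.1 kb upstream (chr10:72514859-72515208), the farthest of the 35. Pcdh8, the paraxial protocadherin of early mesoderm, had a summit of 4.32-fold 32.8 kb beyond its start, over the microRNA gene Mir759. By class, 2 of 3 delta-1 genes had 8 peaks, 3 of 4 delta-2 genes had 4 peaks and 1 of the remaining 3 Pcdh genes had 1 peak. Pcdh1, Pcdh12, Pcdh18 and Pcdh20 had none. Over both families, 10 of 22 Cdh genes (45.5%, interval 26.9 to 65.3%) and 6 of 10 Pcdh genes (60.0%, interval 31.3 to 83.2%) had a peak, and these intervals overlap.

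Just inside the limit of 50 kb were the Pcdh15 summit at 47.1 kb and the second Cdh26 summit at 43.6 kb. Just outside it were an intronic summit of Cdh12 at 54.8 kb (5.58-fold), an intergenic one of Pcdh10 at 60.8 kb (5.09-fold) and intronic ones of Cdh13 at 65.5 kb (9.45-fold) and 66.3 kb (5.69-fold). The set of genes without a peak therefore depends on this limit for Cdh12 and Cdh13, and for Pcdh15, which had no other summit inside it.

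The distance from the TSS to the nearest summit ranged from 204 bp at Pcdh7 to 1079 kb at Cdh19. Its median was 50.9 kb (interquartile range 9.44 to 118 kb) against 38.6 kb (10.0 to 107 kb) for all coding genes. After Cdh19, the genes whose TSS was farthest from any summit were Pcdh20 at 610 kb, Cdh18 at 455 kb and Cdh8 at 414 kb. Cdh18 nevertheless had 2 summits inside its gene body. Only 2.68% of all coding genes had a TSS farther from a summit than that of Cdh19, and 7.61% one farther than that of Cdh8. Cdh19, known from the Schwann cell lineage, is on chromosome 1 with Cdh7 and Cdh20, and none of the 3 had a peak within 50 kb. On chromosome 15, Cdh6 had peaks and the other 4 type II genes Cdh9, Cdh10, Cdh12 and Cdh18 had none within 50 kb. On chromosome 8, 4 of 7 genes held 9 peaks.

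**Figure D2:**
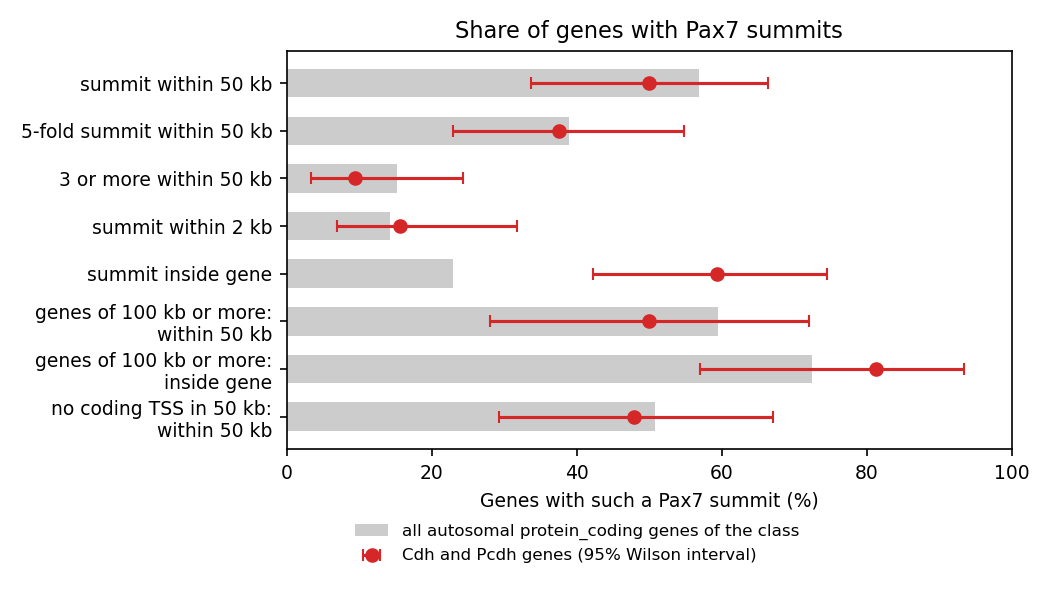
Red points are the percentage of cadherin and protocadherin genes with a Pax7 summit by each of 8 criteria, with 95% Wilson intervals, and grey bars are the percentage of all autosomal protein-coding genes of the same class. The red interval lies apart from the grey bar for summits inside the gene, 59.4% against 22.9%, and covers the end of the bar in the other 7.

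Cadherin genes are long and stand apart from other genes, and the counts were therefore repeated with these properties in view. The median gene length was 108 kb against 15.5 kb for all coding genes, and 23 of 32, or 71.9%, had no other coding TSS within 50 kb, against 25.3% of all. Among genes of at least 100 kb, 8 of 16 had a summit within 50 kb of the TSS, which is 50.0% against 59.4% of all genes that long. Among genes with no other coding TSS within 50 kb, 11 of 23 had one, which is 47.8% against 50.8%. In both classes the share of the family again lay near that of its class.

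Inside the genes the count was higher. A summit lay within the gene body of 19 of 32 genes, or 59.4% (interval 42.3 to 74.5%), against 22.9% of all coding genes. Restricted to genes of at least 100 kb, the counts were 13 of 16, or 81.2%, against 72.4%, and the interval of 57.0 to 93.4% covered the value of all long genes. Pooled over its whole length, the family held fewer summits per 100 kb than all coding genes, with no interval computed for these pooled densities. Its 64 summits in 8.43 Mb of gene body made 0.759 per 100 kb. All coding genes had 1.10, all genes of at least 100 kb 1.08 and the sequenced autosomes 0.850. The longest genes weigh most in the pooled value. Among them Pcdh15 (0.258 per 100 kb), Cdh18 (0.216) and Pcdh9 (0.115) were low, and Cdh13 had 0.768. The pooled value is therefore not one that each gene shared.

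Density differed among the genes. It was highest in shorter genes with few summits. Cdh5 came first with 3 in 42.9 kb, then Cdh16 with 1 in 22.5 kb (4.45 per 100 kb) and Cdh26 with 2 in 56.8 kb (3.52 per 100 kb). By number, Pcdh7 came first with 9 summits in its 411 kb (2.19 per 100 kb), a count above that of 99.4% of coding genes. Cdh4 had 8 in 457 kb (1.75 per 100 kb) and Cdh2 had 6 in 220 kb (2.72 per 100 kb). Cdh13 also had 8, but in 1041 kb (0.768 per 100 kb), and Pcdh9 had 1 in 873 kb (0.115 per 100 kb). Cdh8, at 392 kb, had none. Type I cadherin genes together held 15 summits at 1.90 per 100 kb, most of them in Cdh4 and Cdh2. Type II genes held 17 at 0.565 and the 3 delta-1 genes 10 at 0.763, and no interval was computed for these densities.

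**Figure D3:**
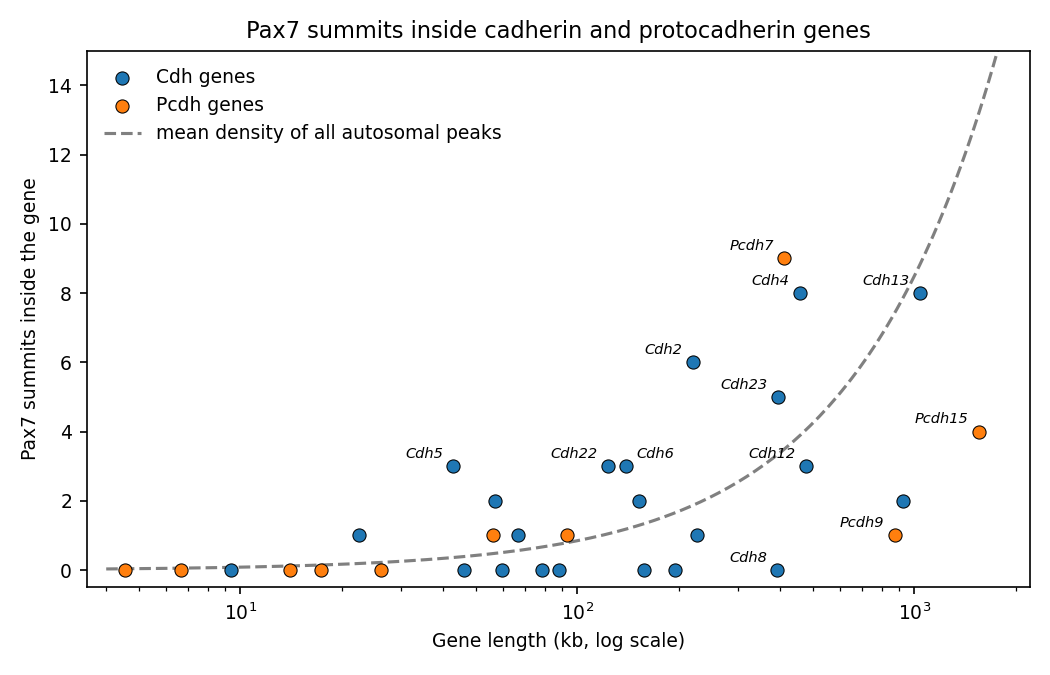
Each point is 1 of the 32 genes, with its length in kb on a log axis and the number of Pax7 summits inside it; the dashed line is the count that the mean density of autosomal peaks, 0.850 per 100 kb, gives for that length. Pcdh7, Cdh4 and Cdh2 lie above the line, Cdh13 lies near it, and Pcdh9, Pcdh15 and Cdh8 lie below it.

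Of the 64 summits inside the genes, 43 were more than 50 kb from the TSS, and the strongest summits of the family were among these. Deep in Pcdh7, an intronic summit of 17.0-fold lay 85.5 kb from the TSS (chr5:58194495-58194980), above 99.4% of all peaks. In Cdh23, an intronic summit of 15.7-fold lay 168 kb from the TSS (chr10:59990870-59991176), above 99.1% of all peaks. The Pcdh7 and Cdh23 values of 17.0-fold and 15.7-fold exceeded the 11.4-fold of Cdh26, the highest value within 50 kb of a TSS. The sequences of these 2 peaks, printed like those of the other peaks, were chosen after their values were seen, and neither held a Pax motif within 50 bp of the summit.
Pcdh7 deep intron, chr5:58194700-58194800: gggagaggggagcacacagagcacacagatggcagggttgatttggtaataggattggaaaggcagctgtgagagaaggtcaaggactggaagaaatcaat
Cdh23 deep intron, chr10:59990972-59991072: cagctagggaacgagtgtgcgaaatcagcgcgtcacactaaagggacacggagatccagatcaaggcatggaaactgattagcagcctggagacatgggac

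Of the 16 genes without a summit within 50 kb of the TSS, 5 had summits farther inside. Cdh13 had 8 (up to 9.45-fold), Cdh23 had 5, Cdh12 had 3 (up to 5.58-fold), Cdh18 had 2 (up to 5.60-fold) and Cdh20 had 1 (4.71-fold, in coding exon sequence). The other 11 had none in the gene or within 50 kb of the TSS: Cdh3, Cdh7, Cdh8, Cdh9, Cdh10, Cdh17, Cdh19, Pcdh1, Pcdh12, Pcdh18 and Pcdh20.

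Around the TSS the 35 summits thinned out with distance. The family had 7 summits within 2 kb, which is 5.47 per 100 kb (Poisson interval 2.20 to 11.3) against 3.95 for all coding genes. From 2 to 10 kb it had 9, or 1.76 per 100 kb (0.804 to 3.34) against 0.992. From 10 to 25 kb it had 0.729 per 100 kb against 0.996, and from 25 to 50 kb 0.750 against 1.06. The intervals covered the values of all coding genes in all 4 bins. Of the 35 summits, 24 lay downstream of the TSS and 11 upstream. The same split over all coding genes is not given here, so these 2 counts are no comparison.

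Most of these summits had the cadherin gene as their nearest coding TSS. This was so for 31 of 35, or 88.6% (interval 74.0 to 95.5%), against 45.9% of all pairs of a peak and a coding gene within 50 kb. The 2 shares are not alike in gene spacing. No other coding TSS lay within 50 kb of 71.9% of the cadherin genes, which held 25 of the 35 summits, against 25.3% of all genes. A comparison with genes of like spacing was not made. The 4 exceptions were both Cdh16 summits and the downstream pair at Cdh24. In place, 21 summits lay inside their own gene, 5 inside another gene and 9 between genes. The 35 peaks were chosen for lying near a coding TSS, so their place was set beside the 11194 autosomal peaks within 50 kb of any coding TSS. Introns held 54.3% of the summits (interval 38.2 to 69.5%) against 46.6% of those peaks. Intergenic sequence held 25.7% (interval 14.2 to 42.1%) against 42.4%. Exons held 7 of 35, or 20.0% (interval 10.0 to 35.9%), against 11.0%, a value inside the interval. Of these 7, 5 were in exons of the gene itself and 4 of the 5 in protocadherin exons.

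The peaks were of ordinary height. Their median fold enrichment was 4.90 (interquartile range 4.25 to 6.60, range 3.02 to 11.4) against 5.22 (4.30 to 6.75) for all autosomal peaks and 5.10 for those within 50 kb of a coding TSS. At least 5-fold enrichment was reached by 15 of 35, or 42.9% (interval 28.0 to 59.1%), against 54.9% of all autosomal peaks, and at least 10-fold by 2, the Cdh26 and Cdh16 peaks, against 7.04% of all peaks. The median −log10 q was 9.17 against 11.6. Summits within 2 kb of a TSS had a median of 5.06-fold and those beyond it 4.89-fold. The median width was 289 bp against 252 bp, and the median GC content within 50 bp of the summit was 49.5% against 45.5%. For the peaks within 50 kb of any coding TSS these medians were 249 bp and 47.5%. Within 2 kb of a TSS the GC content was 54.5%, and beyond it 48.0%.

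**Figure D4:**
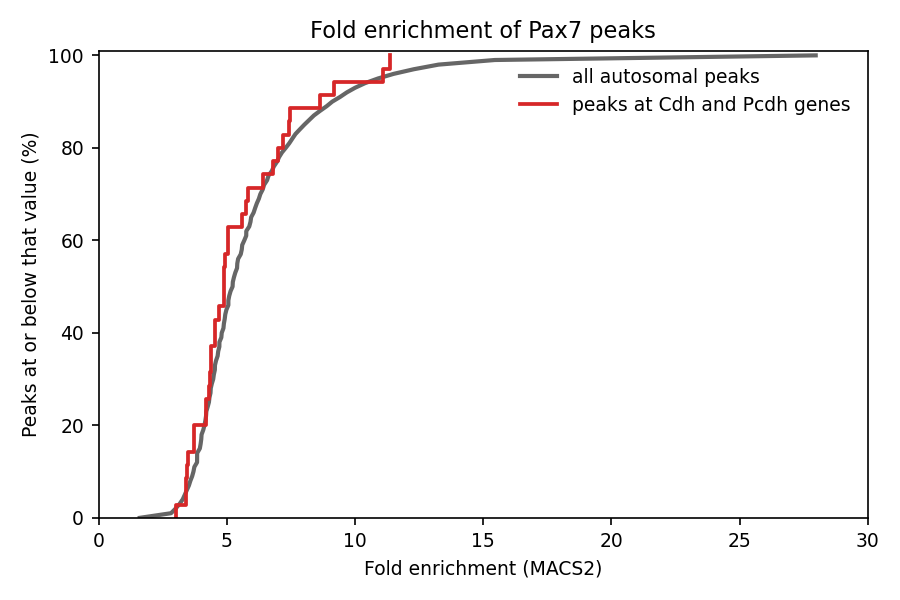
The curves give the percentage of peaks (vertical axis) with at most the MACS2 fold enrichment on the horizontal axis, in red for the 35 peaks at cadherin and protocadherin genes and in grey for all 20336 autosomal peaks. The red curve stays close to the grey one, with medians of 4.90 and 5.22, and ends at 11.4 where the grey one runs on to 28.0.

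Both strands were scanned for motifs in the 50 bp on either side of every summit, and again in equally wide flanks centred 500 bp away. A Pax motif (GTCACG, TAATNNATTA or TAATNNNATTA) was found at 9 of the 35 summits, or 25.7% (interval 14.2 to 42.1%), against 12.9% of all autosomal summits. Among summits within 50 kb of any coding TSS the share was 15.0%, which the interval covers. In the flanks it was found at 1 of 35 on either side, against 1.77% and 1.90% for all peaks. The paired-box core made up 8 of the 9, and was found at 22.9% of the summits (interval 12.1 to 39.0%) against 11.2% of all summits and 13.6% of those near a coding TSS. These were 3 summits of Pcdh7 and 1 each of Cdh1, Cdh2, Cdh16, Cdh22 and Pcdh10. The other Cdh2 summit held the homeodomain dimer TAATNNATTA, so both Cdh2 summits had a Pax motif. TAATNNNATTA was at none of the 35, which allows a share of up to 9.89%, and at 0.974% of all summits. Among the printed lines, the core lay 3.5 bp from the summit at Pcdh7, 13.5 bp at Cdh16, 25.5 bp at Cdh1 and 46.5 bp at Pcdh10. At the other 2 Pcdh7 summits with a core it lay 9.5 and 35.5 bp away.

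Sites of other factors were counted in the same windows. GGAATG (Tead) was found at 9 of 35 summits, or 25.7% (interval 14.2 to 42.1%), against 10.9% of all summits and 10.3% of those near a coding TSS, and at 1 of 35 in either flank. The 9 were 4 summits of Cdh5 and 1 each of Cdh6, Cdh24, Cdh26, Pcdh7 and Pcdh17. The Cdh6 site lay 42.5 bp from its promoter-side summit. CAGCTG (an E-box) was at 4 of 35, or 11.4%, against 15.7%, and TGANTCA (AP-1) at 3, or 8.57%, against 6.79%. TGTGGT (Runx) was at 2, or 5.71%, against 9.73%, and the control word GCACTG at 2, or 5.71%, against 6.87%. The Tead interval lay above both of these values, and those of the other 4 motifs covered the values of all summits. Within 25 bp of the summit a Pax motif was at 3 of 35, or 8.57%, against 8.30% of all summits, and GGAATG at 2 of 35, or 5.71%, against 5.70%. Within 25 bp the family was thus near the background for both. Within 100 bp the shares were 31.4% against 16.6% for Pax motifs and 34.3% against 18.8% for GGAATG. Among summits near a coding TSS they were 19.3% and 17.8%. The Pax interval of 18.6 to 48.0% covers 19.3%, and the GGAATG interval of 20.8 to 50.8% lies above both of its values. No summit held both a Pax motif and GGAATG. Because several of these summits belong to 1 gene, 8 motifs were counted and GC content differed from that of all peaks, the shares were not tested. A match is only a run of letters in the window.

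The proteins that cadherins bind were looked at beside them. Of 16 genes for catenins and adherens junction partners, 12 had a summit within 50 kb, or 75.0% (interval 50.5 to 89.8%). Summed over the 16 genes there were 23 peaks, a mean of 1.44 per gene. The interval covered the 56.8% of all coding genes. Vcl, which encodes the actin linker vinculin, had 5 peaks (up to 6.98-fold). Jup, which encodes plakoglobin, had 2 (up to 10.3-fold), Ctnnd1 (p120 catenin) 1 of 10.2-fold and Ctnnb1 (beta-catenin) 2 (up to 4.54-fold). Ctnna1, which encodes alpha-E-catenin, had 1 of 5.96-fold, and the nectin genes Pvrl1, Pvrl2 and Pvrl3 had between 1 and 3 each. Ctnna2, Ctnnd2, Mllt4 (afadin) and Pvrl4 had none.

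Of 26 other genes of the cadherin superfamily 13 had a summit within 50 kb, or 50.0% (interval 32.1 to 67.9%), with 18 peaks. Fat1, a giant cadherin of planar polarity and muscle patterning, had 4 (up to 10.0-fold). Cdhr3 had 1 of 13.2-fold and Fat3 1 of 11.0-fold. All 6 desmoglein genes had none, while the desmocollin genes Dsc1 and Dsc2 each counted a summit of 5.23-fold. Whether this was 1 peak counted for both genes was not checked. This list and the numbered cadherins had the same share with a peak, and the catenin partners had a higher one whose interval overlaps theirs.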

How the data were processed

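ChIP-seq was done on Dox-treated iPax7 cells, giving 2 Pax7 ChIP and 2 input libraries. Per the study's methods, the authors placed reads on mm9 (bowtie2), discarded those without a unique position and PCR duplicates (Picard), pooled both replicates and ran MACS2 at a q-value of 0.01. Stretches that short reads cannot map uniquely therefore give no peak. The deposited list holds, as the authors made it, the fold enrichment (a ratio of pooled ChIP signal to local background), the −log10 q-value, a score (10 times the −log10 q-value, cut to its whole part) and the summit; its −log10 p-value was not used. The list gives no read counts, so the depth behind a peak and its error are unknown. Columns of single samples that could not be mapped numbered 0.

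From these values, summits (peak start plus summit offset) of the 19 autosomes were matched with gene starts of the GENCODE vM1 annotation of NCBIM37, within 50 kb, 2 kb or the gene body. Coordinates are 1-based. Genes were compared with all autosomal protein-coding genes, and peaks with all autosomal peaks and, as chosen after seeing the data, with those within 50 kb of any coding TSS, by counts, medians and 95% Wilson intervals (Poisson for densities). Exon, intron and intergenic labels used all annotated transcripts. Motifs were searched within 50 bp of summits. Since the list was called on merged libraries, no test over samples was made. The cadherin genes, the partner list (16 genes) and the superfamily list (26 genes, with Dchs2 not matched under that symbol) were chosen with earlier results of these data known. The text accounts for each of the 32 cadherin and protocadherin genes. Of their peaks within 50 kb it gives in full the 10 strongest, every one within 2 kb of a TSS and all of the 3 genes with most peaks. Alternatives were other windows (25 and 100 kb), any transcript start, stricter peaks, merged peaks, other motif windows and long genes. The counting steps recovered planted peaks and motifs in data made for that check. Scripts ran on Python 3.11.15 with scipy 1.17.1, numpy 2.4.6, matplotlib 3.10.9 and pandas 2.3.3.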

Additional observations from a re-analysis of the deposited data

How the results depend on the processing

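No library could be left out and no paired analysis was possible because the replicates were merged before peak calling, so how far 1 library carries a peak was not tested. Of 46 values under other settings, 34 stayed in range and 12 did not, where in range means inside the main value's counting interval for shares and the median, within 1.5 times for the mean, and inside the interval with the sign kept for the difference. The mean of 1.09 peaks per cadherin gene became 0.719 with a 25 kb window, 1.78 with a 100 kb window, 1.66 with any transcript start and 0.469 with peaks of at least 5-fold, each of which adds or removes peaks by construction. The means over all coding genes, 1.14 at first, were 0.615, 2.21, 1.32 and 0.589, so the cadherin genes were above all genes with 25 kb and with any transcript start and below them with the others. The share with a peak, 6.82 points below all coding genes (-6.82), was 0.719 points above them with 25 kb. It was 12.4 points above them when the gene body and 50 kb before the TSS were counted together, a setting chosen after seeing the data under which long genes have longer windows. Within 25 bp of the summit the share with a Pax motif, 25.7% within 50 bp, was 8.57%, and the share with a Tead motif, also 25.7%, was 5.71% (the Tead windows were chosen after seeing the data), both near the values of all summits. The share of peaks nearest to their cadherin gene, 88.6%, was 73.7% with 100 kb and 73.6% with any transcript start, and for the other superfamily genes the share with a peak, 50.0%, was 26.9% with 25 kb and 69.2% with 100 kb. Where construction does not show the cause, the cause was not tested.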

Other observations

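The annotation lists several starts for some of these genes, and 3 genes without a summit near the gene start had summits within 50 kb of another transcript start. Cdh13 then had 3, Cdh18 had 2 and Cdh23 had 2. With these the share of cadherin and protocadherin genes with a peak was 59.4%, against 59.6% of all coding genes counted the same way. Among genes that already had peaks, Pcdh15 went from 1 to 5, Cdh2 from 2 to 5, Cdh4 from 2 to 4 and Cdh22 from 2 to 4. Pcdh7 stayed at 6 and Cdh5 at 5. Which of these starts is used in the cells is not known from the peak list.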
